A study of Mus musculus with 6 samples.

Results

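The genes of glycolysis and the pentose phosphate pathway were followed in RNA-seq libraries of hematopoietic stem cells (HSCs) from mice given ferulic acid (FA), a plant phenolic acid, over a long term (l-FA) and from control mice (Ctrl). The members were 36 gene symbols chosen by name. They run from glucose uptake to lactate export and the control of pyruvate oxidation, together with the genes of the pentose phosphate pathway. They matched 37 of the 27198 rows of the gene table, since Aldoa has 2 rows with different Ensembl identifiers. All 37 rows had enough counts to be tested, as did 16520 rows in all.

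The 3 Ctrl and 3 l-FA libraries were made from bone marrow cells of male wild-type C57BL/6 mice aged 8 to 10 weeks. The l-FA mice received FA at 50 mg/kg by daily intraperitoneal injection for 30 days, and the Ctrl mice received the solvent. No group carried a transgene or a deletion. HSCs were sorted as Lineage-, Sca-1+, c-Kit+, CD34- and Flk2- cells, and RNA was amplified from its poly(A) end before sequencing. How many mice went into each library is not stated, so p-values measure the spread between these libraries. The comparison asks how gene expression in HSCs differs after long FA treatment.

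Glycolysis breaks glucose down to pyruvate in the cytosol and yields ATP without oxygen. Pyruvate is then turned into lactate by lactate dehydrogenase or is oxidized in mitochondria by the pyruvate dehydrogenase complex. The pyruvate dehydrogenase kinases hold this complex back. The pentose phosphate pathway branches off after the first step. Its oxidative arm makes NADPH, used against oxidants and for lipid synthesis, and its non-oxidative arm makes ribose phosphate for nucleotides and returns carbon to glycolysis. Quiescent HSCs in bone marrow are known for relying on glycolysis and for holding back pyruvate oxidation.

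Total counts were between 19287735 and 20380610 in Ctrl and between 19505689 and 20376031 in l-FA, so depth was alike in both groups. Levels are given as CPM, the share of a library's counts on a common scale, after TMM scaling, and a gene was called where the adjusted p of edgeR's quasi-likelihood test was under 0.05. At this threshold 50.5% of all genes tested were called, 25.5% higher and 25.0% lower in l-FA. Adding the fold limit of 2 used by the study left 11.8% of genes, 6.68% higher and 5.10% lower. The transcripts of Cd34 and Flt3, which encode the proteins the sort excluded, were present at 1325 to 1361 CPM and 756 to 763 CPM in Ctrl, and both were higher in l-FA, at 1541 to 1617 CPM and 1160 to 1196 CPM. The transcripts alone do not show whether the sequenced cells carried these proteins, so HSC here is the name given by the labels. The HSC markers Procr, Mecom and Fgd5 were detected in all 6 libraries, and of 13 HSC markers 7 were higher and 1, Hlf, was lower in l-FA. Of 19 granulocyte and monocyte markers, 18 were tested, 17 were lower and 0 were higher. Their summed level fell from between 24180 and 24910 CPM to between 6478 and 6770 CPM, led by Mpo and Elane, which encode neutrophil granule enzymes, while Ly6g, a defining neutrophil marker, was at 3, 6 and 8 counts in Ctrl and at 0 in each l-FA library and was not tested. In bulk samples fewer cells of a type and less RNA per cell cannot be told apart, and the part of this fall in the values below was not tested.

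Promoters are printed for the members with the largest changes, Tigar and Rpe, and for the lactate dehydrogenase pair Ldha and Ldhb, whose levels moved in opposite directions. Each run covers 250 bases before and 50 bases after the annotated start, 5′ to 3′ on the gene's own strand, from RefSeq on GRCm38.p6. Capitals mark ACGTG read on either strand, the core of the site bound by hypoxia-inducible factors, and the palindrome CACGTG, the site of MYC and related factors, holds it on both strands. The Tigar window is chr6:127109503-127109802 on the minus strand, Rpe is chr1:66700581-66700880 on the plus strand, the first Ldha window is chr7:46845554-46845853 on the plus strand, and Ldhb is chr6:142507908-142508207 on the minus strand.
Tigar: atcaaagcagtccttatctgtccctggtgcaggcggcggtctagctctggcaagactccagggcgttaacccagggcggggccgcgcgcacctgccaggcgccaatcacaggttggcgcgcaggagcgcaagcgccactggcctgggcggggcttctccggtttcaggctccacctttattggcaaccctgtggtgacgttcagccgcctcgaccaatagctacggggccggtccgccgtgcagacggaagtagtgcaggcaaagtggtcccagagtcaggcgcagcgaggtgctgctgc
Rpe: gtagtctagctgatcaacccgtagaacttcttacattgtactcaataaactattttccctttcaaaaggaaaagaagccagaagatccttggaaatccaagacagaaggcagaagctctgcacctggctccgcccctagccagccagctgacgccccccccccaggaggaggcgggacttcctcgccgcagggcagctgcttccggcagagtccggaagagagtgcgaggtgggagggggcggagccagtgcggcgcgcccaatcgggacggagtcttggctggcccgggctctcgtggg
Ldha: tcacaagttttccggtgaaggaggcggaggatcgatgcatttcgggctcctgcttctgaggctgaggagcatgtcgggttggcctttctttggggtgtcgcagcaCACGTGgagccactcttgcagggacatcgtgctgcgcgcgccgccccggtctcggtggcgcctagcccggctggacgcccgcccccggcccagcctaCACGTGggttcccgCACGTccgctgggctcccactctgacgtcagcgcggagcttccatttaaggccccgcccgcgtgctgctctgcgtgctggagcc
Ldhb: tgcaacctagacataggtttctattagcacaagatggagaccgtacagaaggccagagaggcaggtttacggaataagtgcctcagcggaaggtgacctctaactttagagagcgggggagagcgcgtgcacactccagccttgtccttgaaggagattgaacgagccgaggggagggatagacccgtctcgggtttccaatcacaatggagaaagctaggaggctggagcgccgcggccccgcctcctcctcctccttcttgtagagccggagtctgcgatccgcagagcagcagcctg

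The first Ldha window held 5 matches to ACGTG, with each of 2 CACGTG palindromes counted on both strands. These letters did not occur in the windows of Tigar, Rpe and Ldhb. The second Ldha window, chr7:46846832-46847131, which is not printed, held 0 matches. Over all members, promoters of 35 symbols were matched, and Slc2a3 was not. ACGTG occurred in 19 of these 35 (54.3%) and in 21.8% of 27025 genes with a window of the same length. CACGTG occurred in 6 members (17.1%), namely Ldha, Pdk2, Pfkfb2, Pfkfb3, Pfkm and Slc16a1, and in 8.09% of all genes. A gene with several windows has more places for a match. Counted per window, ACGTG occurred in 44.2% of 52 member windows and in 19.6% of all 32851 windows. For CACGTG these shares were 11.5% and 7.15%. Member windows were richer in G and C, with a median of 60.8% against 52.7% over all windows. A match describes the letters in this window and is not a bound site.

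Of the 37 member rows, 22 were lower in l-FA, 8 were higher and 7 did not pass, so 30 were called beside 50.5% of all genes tested. The median log2 fold change of the members was −0.24, while that of all genes tested was 0.0035. The 3 members that also passed the fold limit, Tigar, Rpe and Pfkfb3, were all lower. Highly expressed genes were called more often in general: where the mean count reached 1000, 61.0% of 5166 genes were called, 24.5% higher and 36.5% lower. Of the 27 member rows above the same mean count, 24 were called (88.9%), 5 higher and 19 lower (70.4%). The groups did not overlap for 32 rows, 9 above and 23 below, beside 60.3% of all genes tested, 30.4% above and 29.9% below. Another listed gene overlapped 20 of the rows, of which 15 were called, and of the 17 rows without such an overlap 15 were called, 5 higher and 10 lower.

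Together the member rows took 1.05, 1.06 and 1.05% of all counts in Ctrl and 0.894, 0.899 and 0.893% in l-FA. Their summed level was 10830 ± 107.7 CPM in Ctrl and 8725 ± 47.3 CPM in l-FA (SD, n = 3), a difference of −19.4%. Leaving out Pkm, the row with the most counts, gave −20.2%. Every l-FA library lay below every Ctrl library on this sum.

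**Figure D1:**
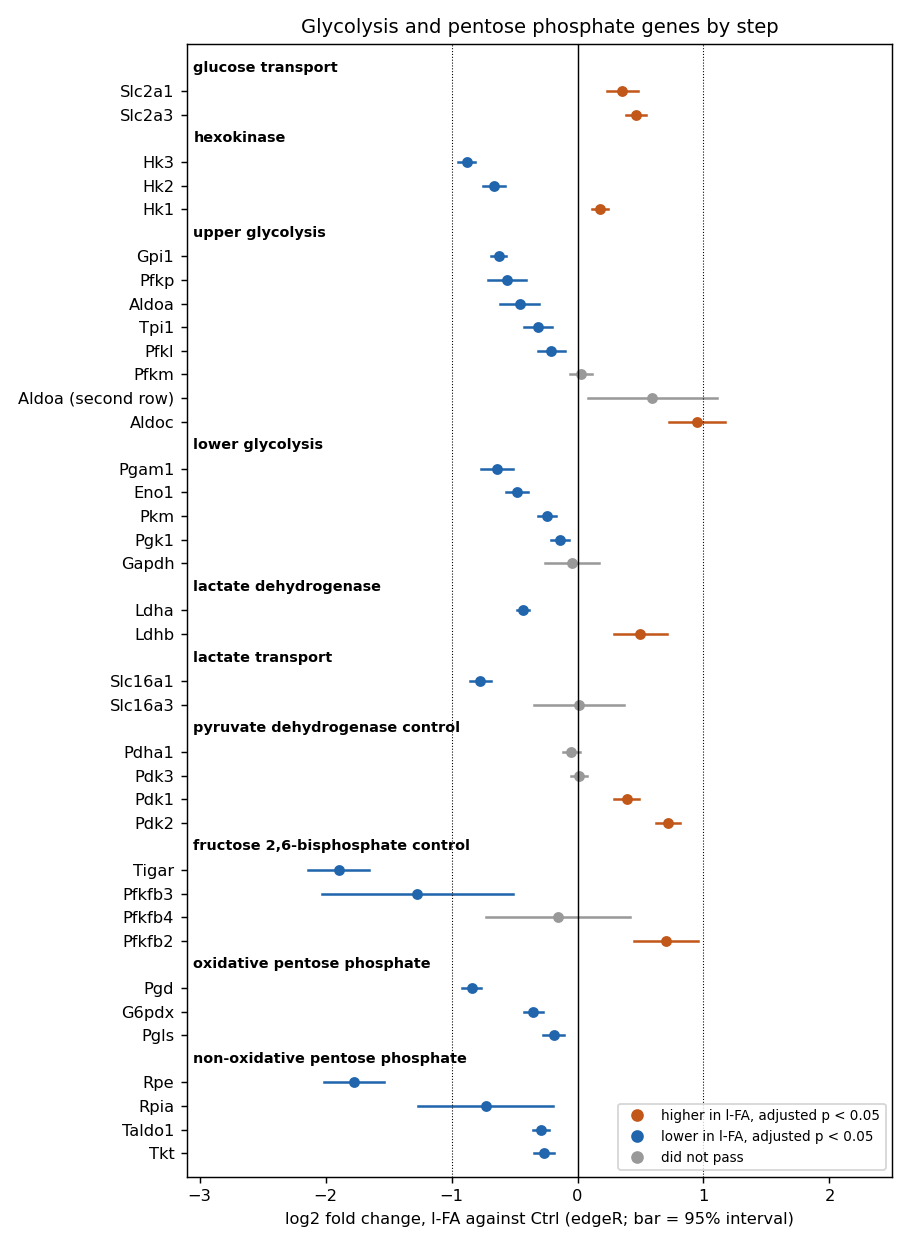
Log2 fold change of l-FA against Ctrl for the 37 member rows, grouped by step, with 95% intervals from edgeR; orange points passed the test as higher, blue points as lower and grey points did not pass, and dotted lines mark the fold limit of 2. The 22 lower rows include all 7 pentose phosphate genes, while both glucose transporters are higher.

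Both glucose transporters of the list were higher in l-FA. Slc2a3, which encodes the high-affinity transporter GLUT3, was at 117, 118 and 112 CPM in Ctrl and 161, 156 and 162 CPM in l-FA. The log2 fold change of Slc2a3 was 0.46 (SE 0.033, adjusted p = 9.73e-05), and the groups did not overlap. Slc2a1, which encodes GLUT1, was at 41.5, 41.4 and 39.0 CPM in Ctrl and 50.6, 50.7 and 54.6 CPM in l-FA, a log2 fold change of 0.35 (SE 0.052, adjusted p = 0.00158). The summed level of the pair was 35.4% above that of Ctrl.

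Hexokinases trap glucose in the cell as glucose phosphate, and the 3 members moved in different directions. Hk3, known for its expression in myeloid cells, fell by 0.88 on the log2 scale (SE 0.028, adjusted p = 5.36e-06), from 331, 342 and 328 CPM to 178, 185 and 182 CPM. Hk2, the inducible form, was at 79.1, 80.3 and 82.1 CPM in Ctrl and 49.4, 51.3 and 51.8 CPM in l-FA (log2 fold change −0.66, SE 0.037, adjusted p = 4.14e-05). Hk1, the form found in most tissues, was at 460, 457 and 435 CPM in Ctrl and 505, 514 and 513 CPM in l-FA, a log2 fold change of 0.18 (SE 0.026, adjusted p = 0.00157). Groups did not overlap for any of the 3 genes, nor for 60.3% of all genes tested. Per exon length, Hk3 made up 57.8 ± 0.433% of hexokinase transcripts in Ctrl and 41.9 ± 0.241% in l-FA, and Hk1 went from 33.7 ± 0.573% to 50.9 ± 0.242% (SD, n = 3), so the order of the pair was turned. By counts without the length, Hk1 was above Hk3 in both groups, at 52.1 and 68.7%. The granulocyte and monocyte markers fell beside Hk3, as given above.

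Phosphoglucose isomerase, phosphofructokinase, aldolase and triosephosphate isomerase carry sugar phosphates to the triose stage. Of these 8 rows 5 were lower, 1 was higher and 2 did not pass, beside 25.0% lower and 25.5% higher of all genes tested, and the summed level differed by −24.2%, at 2719 ± 71.6 CPM in Ctrl and 2061 ± 14.6 CPM in l-FA. Gpi1, the isomerase, was at 689, 696 and 676 CPM in Ctrl and 432, 451 and 454 CPM in l-FA (log2 fold change −0.62, SE 0.026, adjusted p = 1.42e-05). Among the phosphofructokinases, which set the pace of the pathway, the platelet form Pfkp changed by −0.56 (SE 0.064, adjusted p = 0.000593) and the liver form Pfkl by −0.21 (SE 0.045, adjusted p = 0.00819). The muscle form Pfkm did not pass, with a log2 fold change of 0.03 and a 95% interval from −0.06 to 0.12. Triosephosphate isomerase, Tpi1, had a log2 fold change of −0.32 (SE 0.047, adjusted p = 0.00169).

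Aldolase showed opposite directions for its members. The main Aldoa row was at 767, 829 and 697 CPM in Ctrl and 534, 583 and 553 CPM in l-FA, a log2 fold change of −0.46 (SE 0.065, adjusted p = 0.00142). Aldoc, the aldolase best known from brain, was at 12.1, 11.9 and 9.99 CPM in Ctrl and 21.3, 21.5 and 22.9 CPM in l-FA, a log2 fold change of 0.95 (SE 0.093, adjusted p = 0.000313). Both genes had groups that did not overlap, as did 60.3% of all genes tested. Aldoc stayed a small part of the family, at 1.30 ± 0.0730% per exon length in Ctrl and 3.34 ± 0.196% in l-FA. The second Aldoa row, with a mean count of 44.2, did not pass (log2 fold change 0.59, adjusted p = 0.0562), and without l-FA replicate 3 it did (0.74, adjusted p = 0.0358).

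In the ATP-yielding stretch from Gapdh to Pkm, 4 of 5 genes were lower, beside 25.0% of all genes tested and 36.5% of those with a mean count over 1000, and the summed level differed by −20.5%. Pkm, which encodes the pyruvate kinase of most tissues, was at 1755, 1711 and 1755 CPM in Ctrl and 1505, 1501 and 1410 CPM in l-FA (log2 fold change −0.24, SE 0.029, adjusted p = 0.000692). Pgam1, the phosphoglycerate mutase, was at 375, 377 and 352 CPM in Ctrl and 242, 219 and 248 CPM in l-FA (log2 fold change −0.64, SE 0.053, adjusted p = 0.000169). Eno1, the enolase, changed by −0.48 (SE 0.037, adjusted p = 0.000124) and Pgk1, the phosphoglycerate kinase, by −0.14 (SE 0.031, adjusted p = 0.00892). These genes have processed copies in the genome that could take part of their reads: the copies listed held between 51.8 and 54.9% of the summed counts of Pgk1 and its copies, between 26.2 and 28.5% for Pgam1 and between 9.74 and 11.4% for Eno1. Adding the copies to their parent genes left 30 member rows called.

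Gapdh, which encodes the enzyme between aldolase and phosphoglycerate kinase and often serves as a reference gene, was listed with only 233 to 284 counts a library, or 11.7 to 14.2 CPM. Per exon length this is 3.22 CPM per kb in Ctrl, while its neighbors in the pathway stood at 263 for Aldoa and 73.3 for Pgk1. Its log2 fold change was −0.04 (95% interval −0.25 to 0.17, adjusted p = 0.725). Its listed copies had 28 to 53 counts in all, and how reads that map to several places were counted is not given in the sources used here.

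**Figure D2:**
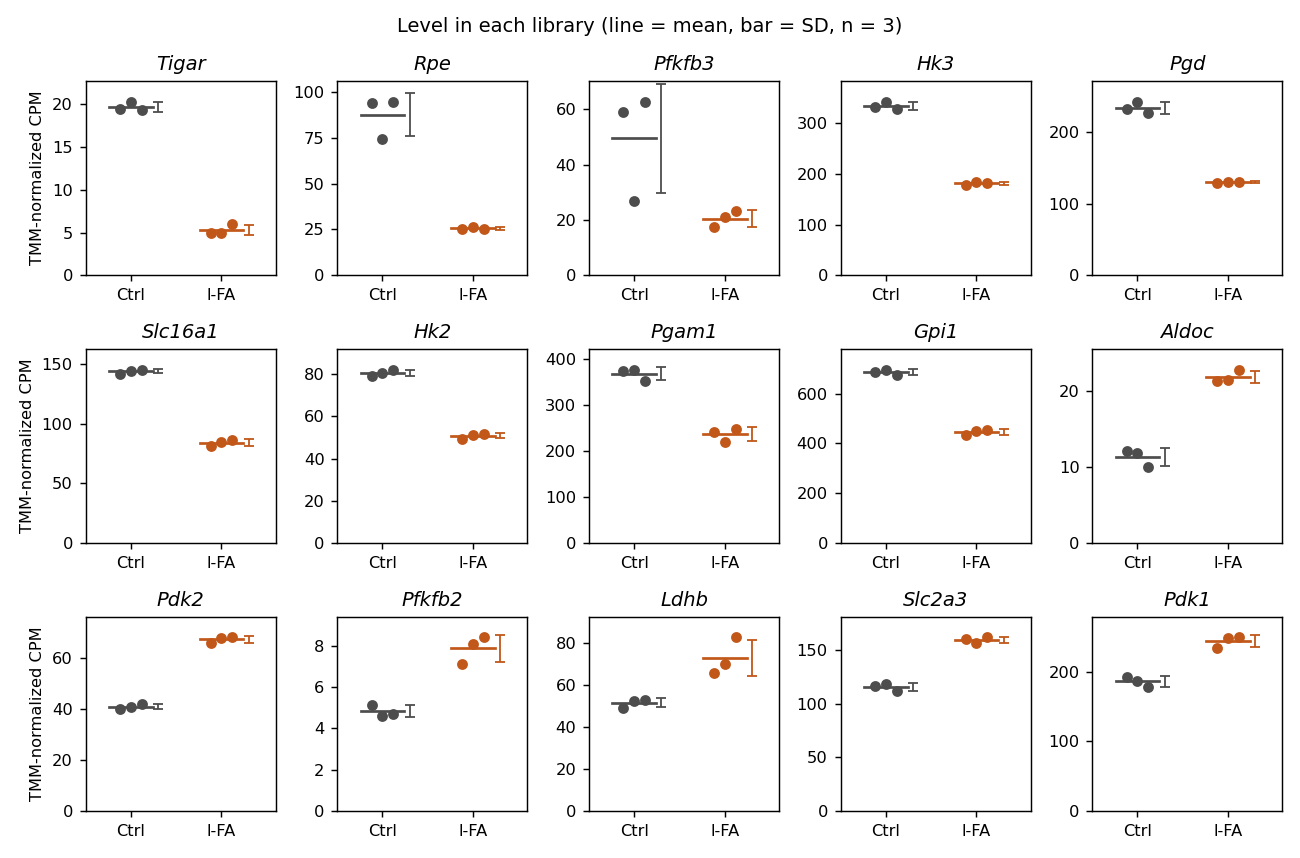
TMM-normalized CPM of 15 member genes in each library, with the mean as a line and the SD as a bar (n = 3 per group), each panel starting at 0. Ctrl and l-FA points are apart in every panel, and Ctrl replicate 2 of Pfkfb3, at 26.9 CPM, lies nearest to the l-FA points.

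Lactate dehydrogenase interconverts pyruvate and lactate, and its A and B subunits moved in opposite directions. Ldha, the subunit that favors lactate formation, was at 1292, 1309 and 1270 CPM in Ctrl and 943, 972 and 953 CPM in l-FA, a log2 fold change of −0.43 (SE 0.020, adjusted p = 2.04e-05). Ldhb, the subunit that favors pyruvate formation, was at 49.0, 52.4 and 52.9 CPM in Ctrl and 65.8, 69.9 and 82.6 CPM in l-FA, a log2 fold change of 0.50 (SE 0.088, adjusted p = 0.00357). Both had groups that did not overlap, as did 60.3% of all genes tested. Ldhb made up 7.75 ± 0.333% of the pair per exon length in Ctrl and 13.8 ± 1.43% in l-FA, so Ldha remained the main subunit. A listed copy held between 12.9 and 17.1% of the summed counts of Ldhb.

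Monocarboxylate transporters carry lactate across the cell membrane. Slc16a1, which encodes MCT1, was at 142, 144 and 145 CPM in Ctrl and 81.2, 84.5 and 86.7 CPM in l-FA, with a log2 fold change of −0.77 (SE 0.035, adjusted p = 1.97e-05) and groups that did not overlap. Slc16a3, which encodes MCT4, was between 11.1 and 15.2 CPM in Ctrl and between 11.8 and 15.3 CPM in l-FA, so its groups overlapped, and it did not pass (log2 fold change 0.01, 95% interval −0.35 to 0.37).

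Of the genes that control pyruvate entry into mitochondria, 2 kinases were higher and the other two members did not pass. Pdk2 was at 40.0, 40.9 and 42.1 CPM in Ctrl and 66.0, 68.0 and 68.2 CPM in l-FA (log2 fold change 0.72, SE 0.040, adjusted p = 4.01e-05). Pdk1, a hypoxia-responsive kinase, was at 193, 187 and 178 CPM in Ctrl and 234, 248 and 249 CPM in l-FA (log2 fold change 0.39, SE 0.040, adjusted p = 0.000393). Both kinases had groups that did not overlap, as did 60.3% of all genes tested. Pdk3 was between 138 and 144 CPM in Ctrl and between 141 and 143 CPM in l-FA (log2 fold change 0.01, 95% interval −0.05 to 0.08). Its share of the 3 kinases per exon length was 59.8 ± 0.142% in Ctrl and 51.3 ± 0.873% in l-FA, while that of Pdk2 was 14.1 ± 0.618% and 19.7 ± 0.158%. By counts without the length, Pdk1 was above Pdk3 in both groups, at 50.6 and 53.8% against 38.2 and 31.3%. Pdha1, the catalytic subunit of pyruvate dehydrogenase, was at 303, 298 and 296 CPM in Ctrl and 281, 295 and 292 CPM in l-FA, groups that did not overlap although the test was not passed (log2 fold change −0.05, 95% interval −0.11 to 0.02, adjusted p = 0.187).

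Fructose 2,6-bisphosphate is a strong activator of phosphofructokinase, and PFKFB enzymes make and break it while TIGAR breaks it down. Tigar was at 19.4, 20.3 and 19.3 CPM in Ctrl and 4.95, 4.89 and 6.01 CPM in l-FA. The log2 fold change of Tigar, −1.89 (SE 0.10, adjusted p = 3.43e-05), was the largest in size among the members, a level 3.72-fold lower, and no other listed gene overlaps its interval at chr6:127062079-127086520 of GRCm39. TIGAR activity is known to favor the pentose phosphate pathway.

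Pfkfb3, whose enzyme mainly makes the activator, was at 59.0, 26.9 and 62.7 CPM in Ctrl and 17.3, 21.1 and 23.2 CPM in l-FA. Its interval, chr2:11476244-11558888 of GRCm39, overlaps Gm10851 and Gm37975. The groups did not overlap, but Ctrl replicate 2 stood closer to l-FA than to the other Ctrl libraries. The log2 fold change was −1.27 with a 95% interval from −2.03 to −0.51 (SE 0.32, adjusted p = 0.0150), and without l-FA replicate 1 it was −1.15 and did not pass (adjusted p = 0.0553). Pfkfb2 was higher, at 5.16, 4.61 and 4.72 CPM in Ctrl and 7.14, 8.08 and 8.41 CPM in l-FA (log2 fold change 0.70, SE 0.11, adjusted p = 0.00178). Pfkfb4 was between 10.1 and 19.0 CPM in Ctrl while the l-FA libraries reached at most 15.8 CPM, and it did not pass (log2 fold change −0.16, adjusted p = 0.621), whereas without Ctrl replicate 1 it was −0.40 and passed (adjusted p = 0.0298). Among PFKFB transcripts per exon length, Pfkfb3 made up 73.8, 43.9 and 65.5% in Ctrl and 38.5, 39.0 and 43.7% in l-FA, so the second Ctrl library lay within 1 percentage point of the l-FA range. The share of Pfkfb2 was 6.57 ± 1.37% and 16.2 ± 0.566%.

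**Figure D3:**
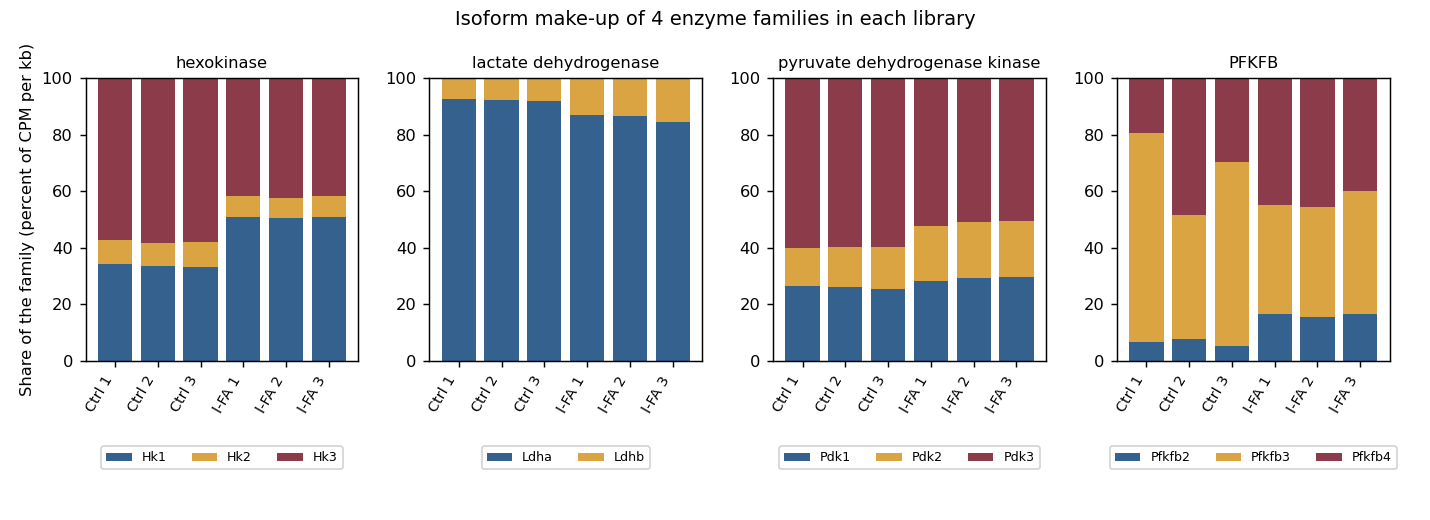
Share of each isoform in 4 enzyme families, in percent of the family's CPM per kb of exon, for each of the 6 libraries as stacked bars. Hk1 rises from 33.7 to 50.9% and Ldhb from 7.75 to 13.8% between group means, and the Ctrl libraries differ most among themselves for PFKFB.

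All 7 pentose phosphate genes were lower in l-FA, with summed levels of 1862, 1896 and 1897 CPM in Ctrl and 1445, 1470 and 1433 CPM in l-FA, beside 25.0% of all genes tested that were lower. In the oxidative arm, Pgd, which encodes the second NADPH-producing enzyme, was at 232, 242 and 226 CPM in Ctrl and 129, 131 and 131 CPM in l-FA (log2 fold change −0.84, SE 0.032, adjusted p = 1.13e-05). G6pdx, which encodes the enzyme that commits glucose phosphate to the pathway, was at 135, 136 and 135 CPM in Ctrl and 103, 108 and 106 CPM in l-FA (log2 fold change −0.35, SE 0.030, adjusted p = 0.000198). Pgls, the lactonase between them, changed by −0.19 (SE 0.035, adjusted p = 0.00428). The 3 genes had groups that did not overlap, as did 60.3% of all genes tested. The summed level of this arm differed by −29.1%.

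In the non-oxidative arm, Rpe, the epimerase of pentose phosphates, was at 94.0, 74.3 and 94.5 CPM in Ctrl and 25.1, 26.5 and 25.3 CPM in l-FA. The log2 fold change of Rpe was −1.77 (SE 0.10, adjusted p = 4.21e-05), a level 3.42-fold lower, and the groups did not overlap. The Rpe interval, chr1:66739990-66758964 of GRCm39, overlaps Kansl1l, and how reads in the shared stretch were assigned is not given in the sources used here. Taldo1, the transaldolase, was at 436, 417 and 428 CPM in Ctrl and 356, 348 and 344 CPM in l-FA (log2 fold change −0.29, SE 0.026, adjusted p = 0.000229). Tkt, the transketolase, changed by −0.27 (SE 0.035, adjusted p = 0.000959). Rpia, the ribose phosphate isomerase, was at 7.19, 5.15 and 5.97 CPM in Ctrl and 2.62, 4.44 and 4.01 CPM in l-FA (log2 fold change −0.73, SE 0.22, adjusted p = 0.0334). The Rpia call was lost without Ctrl replicate 1 (adjusted p = 0.0945), without Ctrl replicate 3 (0.0688), without l-FA replicate 1 (0.0629) and without l-FA replicate 3 (0.0639), and its log2 fold change was −0.60, −0.75, −0.52 and −0.78 in these fits.

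**Figure D4:**
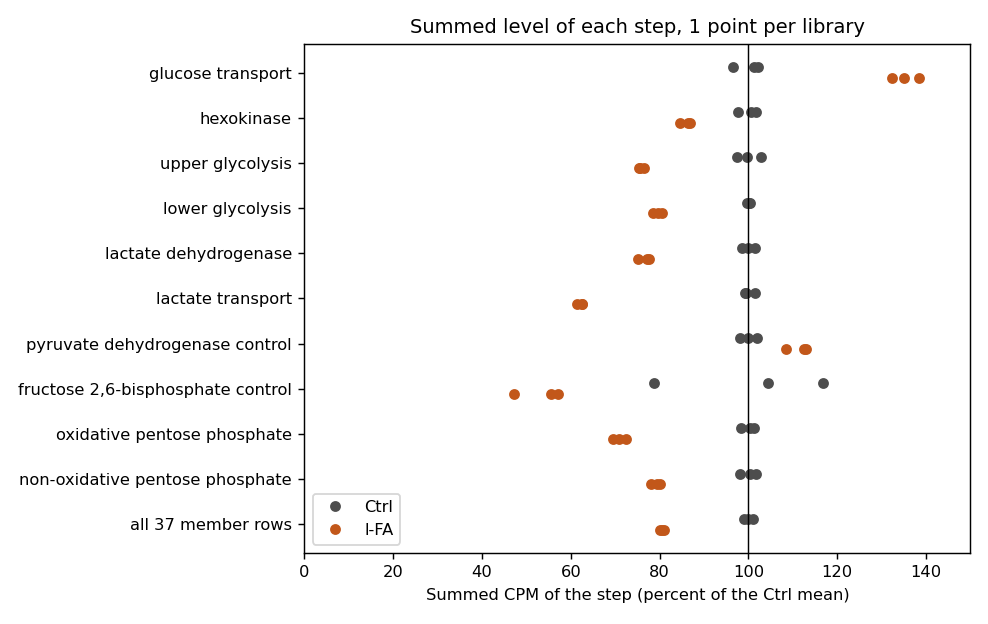
Summed CPM of the genes of each step in each library, as percent of the Ctrl mean of that step, with 1 point per library. Glucose transport and pyruvate dehydrogenase control lie above Ctrl and the other steps below, with the widest Ctrl spread for the step that sets the activator of phosphofructokinase.

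Across steps, the summed level in l-FA was above Ctrl for glucose transport (35.4%) and for pyruvate dehydrogenase control (11.3%). It was below Ctrl by a change of −14.1% for the hexokinases, −23.4% for lactate dehydrogenase, −20.9% for the non-oxidative pentose phosphate genes, −37.9% for lactate transport and −46.8% for the PFKFB genes with Tigar. On the level per exon length, Ldha (390 CPM per kb in Ctrl, 289 in l-FA) and Pkm (348 and 294 CPM per kb) were the most abundant members in both groups, and the ranges of the pair overlapped in l-FA. Aldoa followed with 263 and 191 CPM per kb, and Taldo1 with 197 and 161. Below them, the mean of Pgam1 (185.5 and 119 CPM per kb) stood above that of Tpi1 (176 and 141) in Ctrl and under it in l-FA. The ranges of this pair overlapped in Ctrl, at 177 to 190 for Pgam1 and 166 to 183 for Tpi1. Tigar, at 5.37 and 1.44 CPM per kb, and Pfkfb3, at 6.55 and 2.71, were among the less abundant members. The order holds only for reads as they were assigned. Gapdh was listed at 3.22 CPM per kb in Ctrl, and listed copies held between 51.8 and 54.9% of the summed counts of Pgk1 and its copies.

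A list of 57 further genes of these pathways held 41 tested genes, of which 8 were higher, 13 were lower and 20 did not pass. The called share, 51.2%, was close to the 50.5% of all genes, and the median log2 fold change was −0.01. Fbp1, the fructose bisphosphatase of gluconeogenesis, was higher with 19.8, 22.5 and 20.6 CPM in Ctrl and 47.8, 45.1 and 44.8 CPM in l-FA (log2 fold change 1.13, SE 0.065, adjusted p = 4.58e-05). Ldhd, the mitochondrial dehydrogenase of D-lactate, was higher by 1.53 (SE 0.17, adjusted p = 0.000503), and Pgm2l1, which makes glucose bisphosphate, by 0.66 (SE 0.12, adjusted p = 0.00354). Slc2a10 and Slc2a6, transporters of the GLUT family, were higher by 0.74 (adjusted p = 0.000898) and 0.67 (adjusted p = 0.00418). Pgp, a phosphatase of glycolytic by-products, was lower, with a log2 fold change of −0.69 (SE 0.036, adjusted p = 3.26e-05).

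Further genes were named after their values were seen. The pyruvate dehydrogenase subunits Pdhb (−0.21), Dlat (−0.40) and Dld (−0.34) and the phosphatase Pdp1 (−0.33), which reactivates the complex, were lower on the log2 scale, and each passed the test. The subunit Pdhx (−0.04, adjusted p = 0.529), the phosphatase Pdp2 (0.10, adjusted p = 0.270) and the phosphatase regulator Pdpr (0.19, adjusted p = 0.0615) did not pass. Pdk4, a further kinase of the complex, had 33, 34 and 31 counts in Ctrl and 3, 0 and 1 in l-FA, against the direction of Pdk1 and Pdk2. Pklr, the pyruvate kinase of liver and red cells, had 0 counts in each Ctrl library and 16, 12 and 13 in l-FA, which was at least 4.30-fold higher against a floor of 3 counts per library.

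Of 19 regulators of these pathways tested, 8 were lower, 1 was higher and 10 did not pass, so 47.4% were called beside 50.5% of all genes tested. Mycn, a MYC family factor, was higher with 88.3, 86.0 and 89.4 CPM in Ctrl and 143, 139 and 143 CPM in l-FA (log2 fold change 0.69, SE 0.030, adjusted p = 1.86e-05). Myc itself did not pass (0.03, adjusted p = 0.779), but did without Ctrl replicate 1 (0.12, adjusted p = 0.0166). Mlx and Mlxip, partners in a glucose-sensing transcription factor, were lower by log2 fold changes of −0.83 (SE 0.054, adjusted p = 6.96e-05) and −0.58 (SE 0.094, adjusted p = 0.00237). Hif1a, the oxygen-regulated factor that drives many glycolytic genes, was at 121, 117 and 116 CPM in Ctrl and 104, 102 and 105 CPM in l-FA (log2 fold change −0.18, SE 0.031, adjusted p = 0.00312), while its activity is set mainly by protein stability. Egln3, a prolyl hydroxylase that marks HIF proteins, changed by −0.22 (adjusted p = 0.0199) and Arrdc4, a target of the glucose-sensing factor, by −0.28 (adjusted p = 0.00233). The regulator Txnip was higher on average, at 340, 262 and 211 CPM in Ctrl and 494, 494 and 295 CPM in l-FA. Its groups overlapped and it did not pass (log2 fold change 0.66, adjusted p = 0.0632). The Egln3 call was lost without Ctrl replicate 1 (adjusted p = 0.0505), without l-FA replicate 1 (0.0647) and without l-FA replicate 3 (0.0748).

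Other marker lists gave mixed values beside these results. Of 20 cell cycle genes, 10 were lower and 1 was higher, beside 25.0% lower and 25.5% higher of all genes tested, and their summed level differed by −5.75%. Of the tested markers, 3 of 10 erythroid ones were higher and 2 lower, 4 of 8 megakaryocyte ones were higher and 0 lower, 3 of 8 lymphoid ones were higher and 2 lower, and 1 of 6 macrophage ones was higher and 2 lower. In all, 5 of 10, 4 of 8, 5 of 8 and 3 of 6 of these were called, beside 50.5% of all genes tested. Summed levels went from between 977 and 1039 CPM to between 1305 and 1386 CPM for the erythroid list, from between 193 and 201 CPM to between 273 and 283 CPM for the megakaryocyte list, from between 1072 and 1092 CPM to between 1017 and 1037 CPM for the lymphoid list and from between 45.2 and 46.6 CPM to between 41.8 and 43.4 CPM for the macrophage list. The erythroid sum followed Car2, with means of 818 CPM in Ctrl and 1201 CPM in l-FA, while Tfrc went from 111 to 52.7 CPM. The lymphoid sum followed Nkg7, with means of 556 CPM in Ctrl and 307 CPM in l-FA. Against Nkg7, Dntt was higher, with means of 459 CPM in Ctrl and 640 CPM in l-FA (log2 fold change 0.48, adjusted p = 1.29e-05). Cd8a and Ms4a1 were at 0 counts in each l-FA library, Slc4a1 was at 0, 2 and 0 counts in Ctrl and 0 in l-FA, and Gp6 and Marco in each Ctrl library. Their part in the member values was not tested.

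Libraries of a group were close to each other. The median over members of the chi-square between a pair of libraries was between 0.803 and 2.47 within groups and between 96.7 and 142 across groups, where counting error alone gives 0.455. Over all genes tested it was between 0.888 and 1.10 within groups and between 7.8 and 8.6 across groups. This value grows with the read count of a gene, so members and all genes are not on a like footing across groups. For 61 immunoglobulin V genes, whose rearrangements differ between animals, it was between 0.375 and 0.725 within groups, near counting error, and between 16.8 and 21.2 across groups. These genes were kept for a mean count of at least 10 over all libraries. A gene high in a single group can pass this filter, which can raise the value across groups. Whether the 3 libraries of a group came from separate mice or from 1 pool is not given in the sources used here, so n = 3 and the p-values may describe technical spread. Members and all genes lay above counting error in every pair, and each library was counted as 1 sample.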

How the data were processed

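RNA-seq was analysed in 3 Ctrl and 3 l-FA libraries of sorted mouse HSCs. The authors deposited read counts per gene and FPKM values in 1 table. The submitters' processing notes name HISAT2, SAMtools 1.3.1, StringTie and edgeR and the build GRCm39. The handling of strand and of reads that map to several places is not given in the sources used here. The deposited counts entered the quasi-likelihood test of edgeR (version 4.0.16, under R 4.3.3, with filterByExpr, TMM scaling and Benjamini-Hochberg adjustment over 16520 of 27198 genes). The study's methods name a fold above 2 with an adjusted p under 0.05. The SE is the log2 fold change divided by the root of F, and intervals are at 95%. The deposited FPKM values were not used for levels, since the lengths they imply were up to 2.50 times the exon union for members; CPM were divided by exon union lengths from GENCODE M21, matched by Ensembl identifier.

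Members and gene lists were chosen with earlier results of these data known. Library values were given for members past both thresholds, for the 10 called members with the largest change and a mean count of at least 100, for the most abundant member of each step and for isoforms whose share moved most. From the further pathway genes and from the regulators, 6 genes each were named by the same rule. Other names from these lists, Myc and Txnip among them, and the names from the marker lists fell outside this rule. Only some of those names are marked as chosen afterwards. On data simulated from these libraries, 73 of 97 genes changed by 1 on the log2 scale were recovered (75.3%), and 21 of 95 changed by 0.5 (22.1%), with 4 false calls, over 16100 genes. No other genes were changed in the simulation, whereas 50.5% of genes tested were called in the data. The adjustment depends on that share, so these rates do not give the sensitivity of the main test. Alternatives were other scalings, DESeq2 1.42.0, other count filters, a replicate block and leaving out each library. Merging processed copies into their parent genes was added after seeing the data. One marker gene is not reported here.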

Additional observations from a re-analysis of the deposited data

How the results depend on the processing

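Between 28 and 31 member rows were called, and between 2 and 3 passed the fold limit, under every alternative run; further pathway genes called ranged from 19 to 23, regulators from 7 to 10 and all genes from 7264 to 9123. Leaving out 1 library gave 28 to 30 members called, 2 to 3 past the fold limit, and 7459 to 7733 genes in all. The median log2 fold change of all genes moved by at most 0.024. Among members, log2 fold changes changed sign for genes that did not pass: Pdk3 without Ctrl replicate 3 (−0.0062 to 0.0301 over the libraries left out), Slc16a3 without Ctrl replicate 3 or l-FA replicate 1 (−0.12 and −0.07, with 0.1154 at the other end), and Gapdh without l-FA replicate 3 (−0.0992 to 0.0397). Myc, a regulator that did not pass, was at −0.01 without Ctrl replicate 2 and −0.03 without Ctrl replicate 3. The cause was not tested. By counts without exon length, the share of Pfkl among phosphofructokinases was 2.24 percentage points higher in l-FA, against −0.66 per length. Rpia, whose call was lost without any of 4 libraries, had a mean of 96.2 counts a library.

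Over all genes tested, the deviations of same-numbered libraries from their group means correlated at 0.0187, −0.0132 and −0.05, so no pairing was seen on this measure. It weighs every gene alike, so it cannot exclude a replicate pattern shared by single genes. With the replicate number as a block, 30 member rows were called, 29 of them shared, with Rpia lost (adjusted p = 0.0867) and the second Aldoa row gained (adjusted p = 0.0491), 3 passed the fold limit, and 21 further pathway genes, 10 regulators and 7405 genes in all were called. The second Aldoa row also passed with upper-quartile scaling (adjusted p = 0.0482) and where each library had to reach 10 counts (adjusted p = 0.0498).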
